A study of Zea mays with 10 samples.

Results

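The second subjective night of B73 maize seedlings kept in constant light (LL) was compared with the second subjective day. The night side holds the arrays of ZT36, ZT40 and ZT44 and the day side those of ZT24, ZT28 and ZT32, so that 6 of the 10 arrays of the time course analysed here enter the comparison. ZT counts the h since the first dawn in LL, and the labels give LL, the time, the tissue (leaf and shoot) and the inbred line for every array. All seedlings were about a week old, had been grown under cycles of 12 h light and 12 h dark, and stayed in the light throughout, so that night and day name the time of the former cycle and not a difference in light. Each array carried labelled RNA from the pooled aerial tissue of 3 replicate harvests of 5 seedlings. No time point was measured more than once, so the values of a side come from 3 times of day and not from replicates of one time: their spread holds both noise and any change within the day or night. The p-values measure only that spread. Because every night array came after every day array, a steady change over the course cannot be told apart from a difference between night and day.

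The circadian clock of plants is a set of proteins that switch each other on and off in a loop of about a day and that keeps running in constant light. In Arabidopsis, where it is best known, proteins made at dawn hold down evening genes such as GIGANTEA, pseudo-response regulators follow each other through the day, and an evening complex that includes LUX closes the loop. Outputs of the clock include the CONSTANS family of flowering regulators, photosynthesis, starch turnover and cell growth. ZT24 and ZT36 fell on the expected dawn and the expected dusk.

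The 17621 probe sets other than controls had a median signal between 191.6 and 203.9 on the day arrays and between 204.5 and 213.5 on the night arrays. The signal is the brightness of a probe set on a linear scale. All 3 night medians were above all 3 day medians, which in an exact two-sided permutation test gave p = 0.1, the smallest that 3 against 3 allows. The spike-in controls, RNAs added in known amounts, did not follow that order: their geometric mean was 929, 649 and 1115 on the day arrays and 1124, 1032 and 696 on the night arrays. The brightest probe set read 10020 at ZT28 and 10398 at ZT44 but between 12561 and 15129 on the other 4 arrays, so the top of the scale was lower on 1 array of each side. Tests were run on 12512 probe sets, those that reached a signal of 50 on 3 or more of the 10 arrays.

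No probe set passed an adjusted p of 0.05 in limma (0%), and the lowest adjusted p was 0.0604. At unadjusted p ≤ 0.05, 866 probe sets (6.92%) were higher at night and 384 (3.07%) were lower. This split depended on the scaling of the arrays: quantile normalization gave 554 higher and 582 lower, and centring each array on its median gave 393 higher and 858 lower. For this centring the medians came from all 17621 probe sets. The median difference of the probe sets tested then went from 0.04 to -0.03, so centring moved it past 0. The share of positive differences was 60.3% on the deposited scale, 51.0% after quantile normalization and 40.9% after centring, and the counts of each gene list are read against these shares and those at unadjusted p ≤ 0.05. The 3 night signals lay above all 3 day signals for 1421 probe sets (11.4%) and below them for 605 (4.84%). When the means also had to differ 1.5-fold, 42 probe sets (0.336%) were higher at night and 48 (0.384%) lower. Larger differences were rare. A 2-fold mean difference was reached by 9 probe sets on the night side and 15 on the day side, and a 4-fold difference by 1, on the night side. The probe sets that were apart and 1.5-fold different were dim: their median signal was 163 for the higher and 127 for the lower ones, against 392 over all probe sets tested. Differences are given as night minus day in log2, with the standard error of the limma fit and the p adjusted over all probe sets tested.

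LUX (GRMZM2G067702), the MYB factor of the evening complex in Arabidopsis, was among the transcripts most clearly higher at night. Its signal was 114, 156 and 169 at ZT24, ZT28 and ZT32 and 290, 326 and 228 at ZT36, ZT40 and ZT44. All night values were above all day values, with the peak at ZT40, and the mean difference was 0.95 ± 0.18 (1.93-fold, adjusted p = 0.237). GI1A (GRMZM2G107101), a maize GIGANTEA gene, read 704, 965 and 1298 through the day and 1772, 1715 and 1071 through the night. Its climb began in the day and the ZT44 value had come back below that of ZT32, so the sides overlapped (0.63 ± 0.23, adjusted p = 0.43). PHOT1 (GRMZM2G001457), a blue light receptor of phototropism, had 425, 428 and 759 on the day side and 868, 827 and 637 on the night side. It had the shape of GI1A, with ZT32 above ZT44 (0.58 ± 0.21, adjusted p = 0.424).

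Other clock genes did not separate the sides. PRR7 (GRMZM2G095727) peaked across dusk, with 395, 502 and 651 by day and 643, 391 and 466 by night. Its difference was -0.05 ± 0.20 and turned positive when ZT32 or ZT40 was left out. PRR59 (GRMZM2G135446) was highest at ZT36, at 260, with 131 to 181 by day and 165 and 168 later in the night (0.27 ± 0.19). PRR59 was chosen after its values were seen. MYBE1 (GRMZM2G145041), a MYB factor, ran the other way. Its signal went from 358 at ZT24 to 155 at ZT36 and stood at 316 at ZT44, and its sides overlapped (-0.52 ± 0.25, adjusted p = 0.523). Of the 8 tested members of the clock and light input list, 3 were higher at unadjusted p ≤ 0.05 and 0 were lower, against 6.92% and 3.07% of all. The median difference was 0.18 against 0.04 over all probe sets. The median was 0.11 under both scalings and 0.07 without ZT36. Under either scaling 1 member, MYBE1, was lower at that p.

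Both CONSTANS-like genes at the head of the flowering list were higher on every night array. COL1 (conz1, GRMZM2G405368), the maize gene closest to the day-length regulator CONSTANS, read 126, 148 and 133 by day and 217, 207 and 232 by night. The 3 values of a side lay close together, so the step of 1.61-fold was large beside their spread (0.69 ± 0.11, adjusted p = 0.214). COL5 (GRMZM2G075562) read 475, 424 and 370 by day and 605, 621 and 683 by night (0.59 ± 0.11, adjusted p = 0.237). It declined through the day, and the difference came to 1.51-fold. FCA (GRMZM2G065276), which in Arabidopsis promotes flowering through RNA processing, overlapped between the sides, with 61.2, 47.8 and 77.0 by day and 97.9, 85.1 and 67.9 by night. LDL1 (GRMZM2G149786), matched to a histone demethylase, differed by 0.16 ± 0.14. Over all probe sets tested 60.3% had a positive difference and 6.92% were higher at unadjusted p ≤ 0.05. All 6 tested members of the list had a positive difference, 2 of them at that p, and the median was 0.32. Each stayed positive under both scalings, where the median was 0.26 after quantile normalization and 0.25 after centring. With a minimum signal of 100 the median was 0.59, since 3 dim members then left the list.

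**Figure D1:**
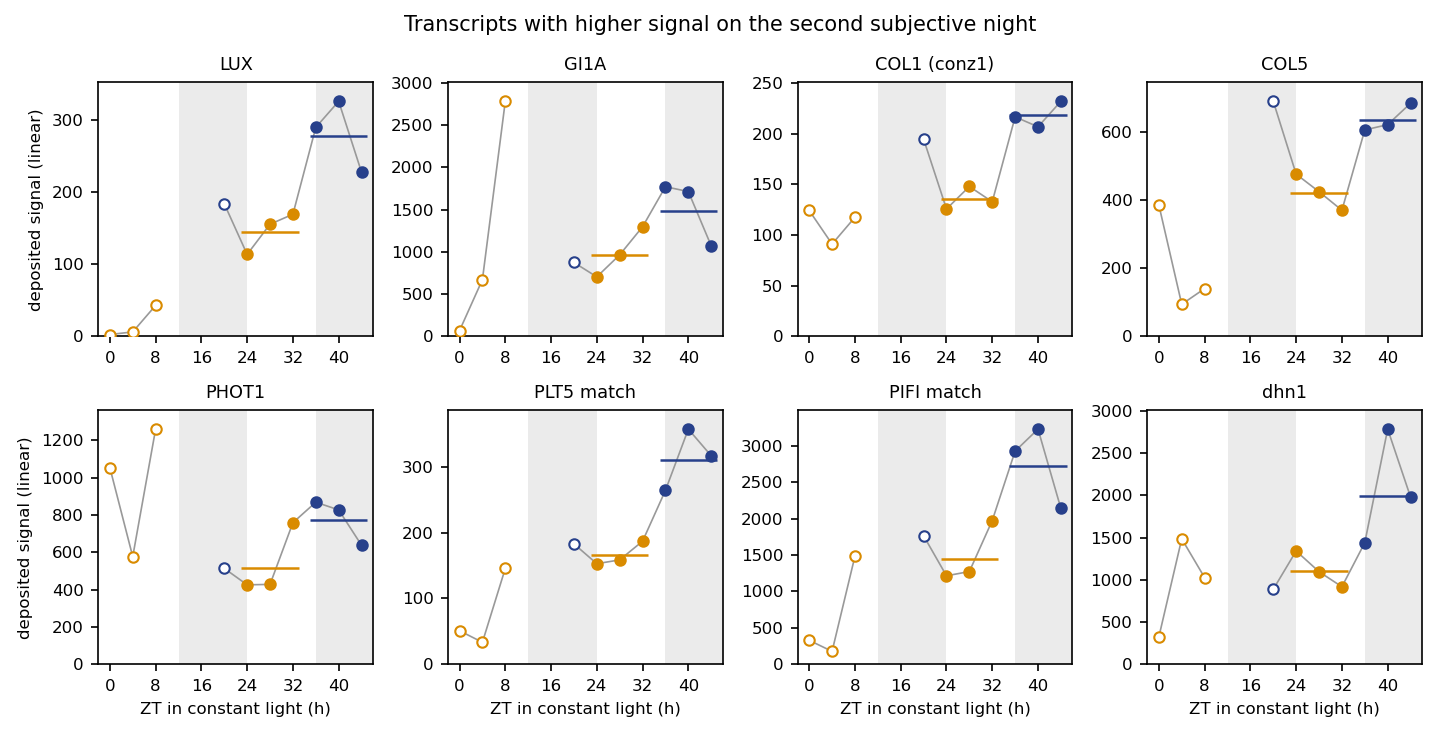
Deposited signal (linear scale) of 8 transcripts against ZT in h. Filled orange points are the second subjective day, filled blue points the second subjective night, open points the first course, grey bands the subjective nights, and horizontal lines the geometric means of the sides. COL1, COL5 and LUX separate the sides, whereas GI1A and PHOT1 climb through the day and are back below their ZT32 signal at ZT44. PIFI and dhn1 were chosen after their values were seen.

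Beyond the clock, the named transcript with the lowest p on the night side was a match to the Arabidopsis polyol transporter PLT5 (GRMZM2G138589). It read 153, 159 and 187 by day and 265, 358 and 317 by night, a difference of 0.91 ± 0.13 (1.88-fold, adjusted p = 0.214). A match to PIFI (GRMZM2G012119), a chloroplast protein named for an increase in chlorophyll fluorescence after light, read 1215, 1274 and 1976 by day and 2932, 3234 and 2142 by night (0.91 ± 0.20, adjusted p = 0.274). Both were thus already up at ZT32 and stood highest at ZT40. The dehydrin dhn1 (GRMZM2G079440), a protein of water-stressed tissue, had another shape. It declined from 1340 to 916 through the day and read 1439, 2784 and 1980 at night (0.85 ± 0.22, adjusted p = 0.323). mlg3 (GRMZM2G096475) showed that same shape, with 476, 367 and 324 by day and 533, 1172 and 769 by night. A transcript annotated as wound-responsive (GRMZM2G028665) climbed from 784 at ZT24 to 1612 at ZT32 and 2922 at ZT40, then stood at 1617 at ZT44. Its mean difference was 2.08-fold. PIFI, dhn1, mlg3 and this wound-responsive transcript were chosen after their values were seen.

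CFM2 (GRMZM2G094072), matched to a factor for intron splicing in the chloroplast, read 470, 394 and 383 by day and 603, 577 and 578 by night (0.50 ± 0.10, adjusted p = 0.237). The sigma factor sig3, a subunit that directs the plastid RNA polymerase, read 177, 155 and 232 by day and 348, 282 and 251 by night (0.65 ± 0.17), and was chosen after its values were seen. A match to HGO (GRMZM2G154093), the homogentisate dioxygenase of tyrosine breakdown, read between 301 and 340 by day and between 425 and 443 by night. The 10 named probe sets with the lowest p on this side also held 4 others: a phosphoglycerate mutase family protein, a membrane zinc metalloprotease, an HPP family membrane protein and a GTP1/OBG family protein. Their differences lay between 0.45 and 0.50. The only 4-fold difference belonged to a probe set that has no gene name here and was singled out after its values were seen. It read 55.2, 60.1 and 119 by day and 480, 573 and 219 by night (5.34-fold, adjusted p = 0.214).

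The lowest p of all belonged to a transcript that was lower at night and has no name here, GRMZM2G425728. It read 435, 407 and 300 by day and 112, 113 and 157 by night, a mean 2.99-fold higher by day (-1.58 ± 0.17, adjusted p = 0.0604). A further probe set of that gene gave 555, 476 and 281 by day and 117, 139 and 251 by night (-1.40 ± 0.30, adjusted p = 0.274). Their identifiers end in _x_at and _s_at, types that can take signal from several near copies, so they may share signal. Both probe sets were chosen after their values were seen. The sides did not overlap on either probe set, and on both the day values declined towards dusk and ZT44 was the highest night value. Over the alternatives the adjusted p of the first ran from 0.0183 to 0.832, and 5 of 16 alternatives called it.

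Among the named transcripts, piip1 (GRMZM2G477685) was lower at night on 3 of its 4 tested probe sets. On the first of these the signal was 94.2, 92.5 and 86.1 by day and 36.5, 56.2 and 33.0 by night (-1.16 ± 0.21, adjusted p = 0.237). The other 2 differed by -1.59 ± 0.26 and -1.48 ± 0.44, and these 3 lay near the signal of 50 that the filter asks for. The identifiers of those other 2 end in _x_at, so they can take signal from near copies and may share it. The fourth, which was the brightest, did not separate the sides, with 392, 503 and 558 by day and 484, 473 and 535 by night (0.05 ± 0.13, and -0.02 after centring). crr2 (GRMZM2G392101) had 72.7, 80.8 and 83.6 by day and 17.6, 15.1 and 48.2 by night (-1.76 ± 0.38, adjusted p = 0.274). Its night values all lay below the filter signal of 50. ZT44 was the highest of the night values, and without it crr2 passed the threshold at a difference of -2.28. The glycine-rich protein GRMZM2G078022 read between 63.7 and 74.0 by day and between 26.6 and 38.1 by night, also below 50. A hydrolase (GRMZM2G007160) read 361, 360 and 316 by day and 202, 179 and 289 by night (-0.66 ± 0.16). A phosphatase (GRMZM2G312510) and a small heat shock protein (GRMZM2G158232), a chaperone, differed by -0.71 ± 0.14 and -0.59 ± 0.11. For the latter the night values were almost equal, at 739, 734 and 743, below day values of 972, 1337 and 1047.

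Both glk1 and Igl, chosen after their values were seen, were lower on every night array. glk1 (GRMZM2G026833), the GOLDEN2-like factor that promotes chloroplast development, read 295, 253 and 258 by day and 154, 145 and 230 by night (-0.64 ± 0.17, adjusted p = 0.35). Igl (GRMZM2G046163), the lyase that releases indole, climbed from 995 to 1431 through the day and read 814, 645 and 972 by night (-0.62 ± 0.16, adjusted p = 0.35). In both, ZT44 was the night value nearest to the day.

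**Figure D2:**
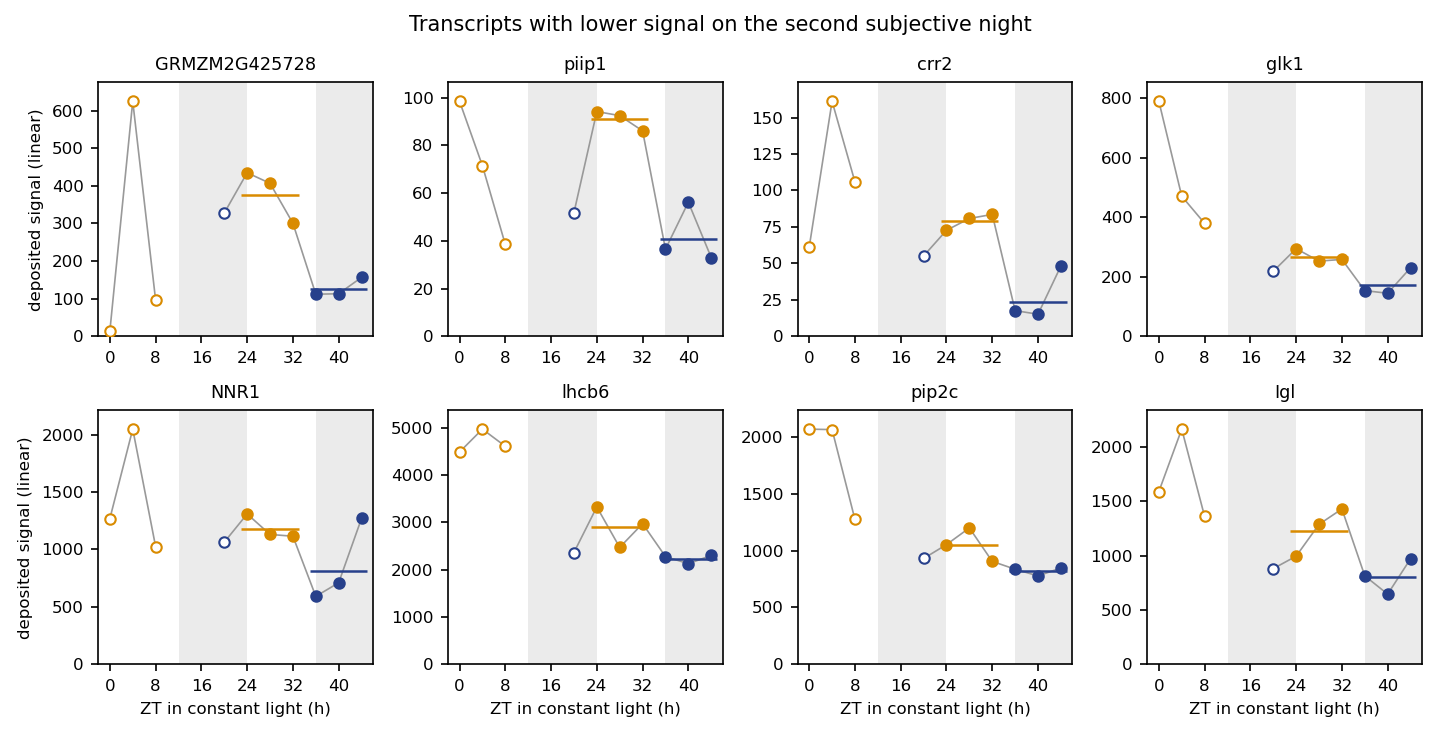
Deposited signal (linear scale) of 8 transcripts that were lower at night, against ZT in h; symbols as in the plot of transcripts that were higher at night. GRMZM2G425728, piip1 (1 of its 4 probe sets), crr2, glk1, lhcb6, pip2c and Igl do not overlap between the sides, and NNR1 does through ZT44, at 1271. GRMZM2G425728, glk1 and Igl were chosen after their values were seen.

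Of 29 tested probe sets for light-harvesting and photosystem proteins 25 had a negative difference, 3 of them lower at unadjusted p ≤ 0.05 and 0 higher, against 3.07% and 6.92% of all probe sets. The antenna and photosystem proteins capture light. Their median difference was -0.13, or -0.07 after quantile normalization, where the counts were 5 lower and 1 higher. lhcb6 (GRMZM2G092427), an antenna protein of photosystem II, read 3330, 2472 and 2975 by day and 2279, 2126 and 2303 by night on one probe set (-0.38 ± 0.11, adjusted p = 0.366). Its other 2 probe sets differed by -0.35 ± 0.15 and -0.30 ± 0.15 and overlapped. LHB1B2 (GRMZM2G429955), a chlorophyll a/b binding protein, read 12518, 9019 and 13088 by day and 10162, 7523 and 7968 by night, so its ZT28 value lay within the night range. These probe sets are among the brightest, and the scale top at ZT28 and ZT44 was low as given above; its part in these differences was not tested. When a time point was left out, the median of the list ran from -0.29, without ZT28, to -0.065. The median signal of the list overlapped between the sides, with 7118, 5632 and 6952 by day and 6145, 5583 and 5534 by night.

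C4 and Calvin cycle enzymes, which fix carbon in maize leaves, had few members past the unadjusted threshold. The median of the C4 list was -0.04 (0.02 after quantile normalization). In that list 1 of 17 probe sets was higher at unadjusted p ≤ 0.05 and 0 were lower, against 6.92% and 3.07% of all. The 1 was bsd2 (GRMZM2G062788), a chaperone for Rubisco assembly, with 1588, 1585 and 1627 by day and 2039, 1825 and 1815 by night (0.24 ± 0.08), and a further probe set of it differed by 0.00. Of 16 Calvin cycle probe sets 0 passed that p in either direction, and the median was -0.10. FBAase1 (GRMZM2G155253), an aldolase, differed most clearly in that list, by -0.29 ± 0.16, and its sides overlapped. In chlorophyll synthesis 1 of 8 was lower, the geranylgeranyl reductase GGR (GRMZM2G105644), at -0.23 ± 0.10, and 0 were higher. The median of that list was 0.02 and turned to -0.049 after centring.

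PHS2 (GRMZM2G147770), an alpha-glucan phosphorylase, read 2411, 2213 and 2355 by day and 2868, 2747 and 2817 by night (0.27 ± 0.08, adjusted p = 0.360). AMY3, an alpha-amylase, declined from 777 to 589 through the day and climbed from 813 to 1032 through the night (0.39 ± 0.12). Each of these separated the sides by less than 1.5-fold. The maize amylase amy5 (GRMZM2G058310) was on the day side, at -0.28 ± 0.12, so that 2 of 9 tested members of the breakdown list were higher and 1 lower at unadjusted p ≤ 0.05, where 6.92% and 3.07% of all probe sets were. Under either scaling the counts were 2 and 2. For synthesis the counts were 3 and 1 of 13. bt2 (GRMZM2G068506) and Agp2 (GRMZM2G106213), both subunits of ADP-glucose pyrophosphorylase, were higher by 0.39 ± 0.12 and 0.29 ± 0.10, without overlap. The 2 probe sets of the starch synthase GBSSIIa (GRMZM2G008263) disagreed: one differed by 0.32 ± 0.14 and the other by -0.58 ± 0.25. The list medians, 0.09 and 0.06, were each 0.01 after quantile normalization, and that of synthesis was -0.01 after centring.

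sus2 (GRMZM2G318780), a sucrose synthase, read 284, 287 and 278 by day and 347, 409 and 372 by night (0.41 ± 0.09, adjusted p = 0.296). The acid invertase ivr2 (GRMZM2G089836), which splits sucrose, was lower, with 1084, 877 and 887 by day and 626, 838 and 746 by night (-0.37 ± 0.12). A fructokinase, frk1 (GRMZM2G086845), was at -0.28 ± 0.11 with overlap. In sucrose metabolism 3 of 19 probe sets were higher and 3 lower at unadjusted p ≤ 0.05, against 6.92% and 3.07% of all. The counts were 2 and 4 after quantile normalization and 1 and 6 after centring. The match to TMT2 (GRMZM2G012923), a sugar carrier of the vacuole membrane, read 1030, 1625 and 1567 by day and 2599, 1979 and 1909 by night (0.63 ± 0.18). TMT2 was chosen after its values were seen.

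In glycolysis, fermentation and the TCA cycle 7 of 44 probe sets were lower at unadjusted p ≤ 0.05 and 2 higher, against 3.07% and 6.92% of all. The median was -0.07. Cytosolic glyceraldehyde-3-phosphate dehydrogenases made up 4 of the 7, from 3 genes. The gpc3 probe set for GRMZM2G071630 declined through the day, with 2698, 2388 and 2077, and read 1897, 1875 and 1843 by night (-0.34 ± 0.10, adjusted p = 0.363). The name gpc3 also stands on GRMZM2G049351, whose 2 probe sets differed by -0.58 and -0.39. These genes are near copies, and a probe set whose identifier ends in _x_at, _s_at or _a_at can take signal from several of them. The citrate synthase GRMZM2G064023 was lower at that p on 2 of its 5 tested probe sets, with differences from -0.31 to -0.01 over the 5. After quantile normalization the counts were 8 lower and 2 higher, and after centring 10 and 2.

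Among the lists with at least 5 probe sets tested, water channels had the lowest median, -0.15 on the deposited scale and after quantile normalization. Aquaporins let water and small solutes through membranes. Of 32 tested probe sets 28 had a negative difference, 5 of them at unadjusted p ≤ 0.05, and 0 were higher at that p, against 3.07% lower and 6.92% higher of all. The tonoplast channel tip2 (GRMZM2G168439) read 128, 111 and 152 by day and 60.1, 97.6 and 86.7 by night (-0.69 ± 0.20, adjusted p = 0.363). pip2c (GRMZM2G081192), of the plasma membrane, read 1053, 1200 and 905 by day and 836, 777 and 847 by night (-0.35 ± 0.11, adjusted p = 0.369). PIP1-3 and nip2b stood at -0.21 ± 0.07 and -0.39 ± 0.15. The exceptions on the night side that are named here overlapped between the sides and were chosen after their values were seen. por2 (GRMZM2G125023) had 91.5, 219 and 101 by day and 145, 341 and 178 by night, and tip4a peaked across dusk. Many of these probe sets are of near copies and may share signal.

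Of 37 probe sets for cellulose and wall proteins 32 had a negative difference, whereas 60.3% of all had a positive one. At unadjusted p ≤ 0.05, 3 were lower and 0 higher, against 3.07% and 6.92% of all. After centring 7 were lower, and the median difference was -0.11 on the deposited scale. The median signal of the list overlapped between the sides, with 1008, 797 and 909 by day and 815, 910 and 825 by night. A match to the beta-expansin EXPB2 (GRMZM2G021427), of the family that loosens walls, read 272, 362 and 260 by day and 201, 237 and 179 by night (-0.53 ± 0.15, adjusted p = 0.363). expB5 and the match to the xyloglucan transferase XTH9 differed by -0.31 ± 0.11 and -0.27 ± 0.08. In lignin synthesis 1 of 11 was lower and 0 higher: cinnamoyl-CoA reductase (cncr1, GRMZM2G131205) read 1360, 1272 and 1210 by day and 942, 1046 and 1064 by night (-0.33 ± 0.08, adjusted p = 0.323). Among 24 tubulin probe sets, for the subunits of microtubules, 1 was lower and 1 higher.

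Nitrogen assimilation had 3 of 14 probe sets lower and 1 higher at unadjusted p ≤ 0.05, against 3.07% and 6.92% of all. NNR1 (GRMZM2G142386), a nitrate reductase, read 1309, 1131 and 1115 by day and 591, 709 and 1271 by night. ZT36 and ZT40 were thus well below the day values and ZT44 was back among them (-0.54 ± 0.23, adjusted p = 0.482). The nitrate reductase probe set nar read 86.7, 55.2 and 80.2 by day and 38.0, 42.1 and 67.9 by night, the same course at a low signal. gln3, a glutamine synthetase, was near the filter limit as well (-0.61 ± 0.22), and its other probe set was at 0.12. The ammonium transporter AMT1 (GRMZM2G175140) was higher, with 507, 470 and 549 by day and 616, 745 and 637 by night (0.39 ± 0.10, adjusted p = 0.331). A match to the sulfate transporter AST91 (GRMZM2G395114) was lower, with 2920, 2784 and 2888 by day and 1867, 1888 and 2400 by night (-0.49 ± 0.11, adjusted p = 0.274). Over all 68 transporter probe sets other than aquaporins 8 were higher and 5 lower, against 6.92% and 3.07% of all, but 4 were higher and 6 lower after centring. Their median of 0.06 then turned to -0.011.

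Glutathione S-transferases, enzymes of detoxification, had 3 of 31 probe sets lower and 0 higher at unadjusted p ≤ 0.05, against 3.07% and 6.92% of all. gst2 (GRMZM2G132093) read 3037, 2681 and 2691 by day and 1821, 2243 and 1991 by night (-0.48 ± 0.10, adjusted p = 0.252). gst7 and gst5 were at -0.64 ± 0.20 and -0.30 ± 0.10. In the carotenoid and abscisic acid list only ZEO (GRMZM2G127139), zeaxanthin epoxidase, passed that p, with 1595, 2002 and 2092 by day and 1642, 1347 and 1667 by night (-0.29 ± 0.12). The list counted 1 lower and 0 higher of 11, and its median of 0.03 turned to -0.040 after centring. AAH, an abscisic acid hydroxylase, overlapped at -0.30 ± 0.24. The 2 probe sets of phytoene synthase (PSY) were at 0.08 ± 0.12 and 0.17 ± 0.25 and beta-carotene hydroxylase (BCH1) at 0.03 ± 0.17, with signs that turned for BCH1 after centring. The catalase CAT3 was at -0.02 ± 0.17 and turned positive, to 0.05, after quantile normalization. For hormones, the gibberellin genes KAO2 and GA1 stood at 0.30 ± 0.14 and -0.20 ± 0.16, and 1 of 10 probe sets in the ethylene and gibberellin list, an ACC oxidase, was lower.

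For regulatory genes the counts on the deposited scale were not far from the shares over all probe sets. The median difference was 0.05 for transcription factors and 0.06 for kinases and phosphatases, against 0.04 over all. LUX, COL1 and COL5, given above, are also members of the transcription factor list. For transcription factors 10 of 99 probe sets were higher and 1 lower at unadjusted p ≤ 0.05, where 6.92% and 3.07% were the shares over all. A match to ZFHD1 (GRMZM2G438438), a homeodomain factor, read 112, 109 and 187.6 by day and 266, 264 and 192 by night (0.85 ± 0.22). Protein kinases and phosphatases had 10 higher and 1 lower of 103. A match to the calcium-dependent kinase CDPK6 (GRMZM2G058305) read between 761 and 771 by day and between 887 and 996 by night (0.31 ± 0.08, adjusted p = 0.323). The other probe set of CDPK6 was at 0.10 and did not pass the unadjusted threshold. A match to the shaggy-like kinase SK11 (GRMZM2G024151) was the lower one, at -0.49 ± 0.15, and its other probe set was at -0.02. The counts of both lists depended on the scaling. After quantile normalization they were 9 higher and 5 lower for transcription factors and 7 and 3 for kinases. After centring they were 7 and 6, and 6 and 4. Ribosomal proteins and translation factors had 4 higher and 4 lower of 90 on the deposited scale, 3 and 5 after quantile normalization and 1 and 10 after centring. Heat shock proteins had 4 and 3 of 43, or 2 and 6 after centring. Genes of lipid and wax synthesis had 3 and 4 of 33, or 1 and 6 after centring, where their median turned from 0.02 to -0.050. Ubiquitin and proteasome genes, which mark and degrade proteins, had 3 higher and 1 lower of 25, or 1 and 4 after quantile normalization, where the median turned from 0.0068 to -0.043. Enzymes of reactive oxygen removal had 1 lower and 0 higher of 10, with a median of -0.021 that turned to 0.0079 after quantile normalization.

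**Figure D3:**
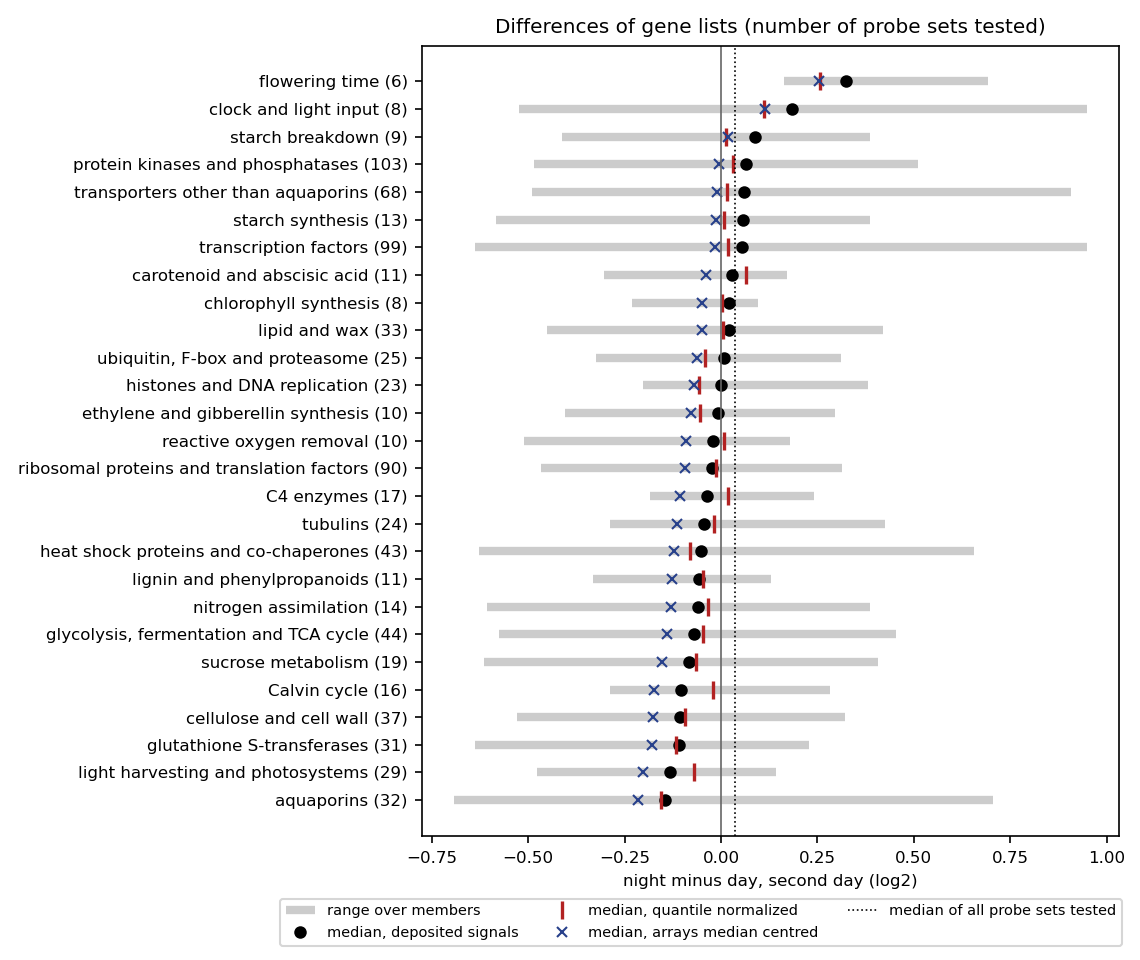
Night minus day differences in log2 for the 27 gene lists with at least 5 probe sets tested. Grey bars span the members, black points are medians on the deposited scale, red ticks after quantile normalization and blue crosses after centring, and the dotted line is the median of all probe sets, 0.04. Flowering time (0.32) and aquaporins (-0.15) have the highest and lowest medians, and centring shifts the medians downwards.

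Of the 48 probe sets that were apart and 1.5-fold lower at night, 30 had their lowest signal at ZT36, 11 at ZT40 and 7 at ZT44. Over all probe sets tested, those lowest at these times numbered 1918, 1815 and 1173. Of the 42 that were higher at night, 15 were highest at ZT36, 18 at ZT40 and 9 at ZT44, where the numbers over all were 2595, 1763 and 2817. Their lowest array was ZT24 for 21, ZT28 for 11 and ZT32 for 10, in proportions close to the 3789, 1600 and 2217 over all. ZT44 was the night array nearest to the day mean for 21 of the 42 and 24 of the 48, against 33.7% of all probe sets tested. Signals climbed without a break from ZT24 to ZT32 in 35.7% of the 42 and in 20.3% of all. These counts are on the deposited scale, where ZT44 had the highest array median. After quantile normalization 1758 of all probe sets tested were highest at ZT44 and 2804 lowest at ZT24. The share with ZT44 nearest to the day mean was then 38.6%. The 42 and the 48 were not sorted by array on that scale, so how far these contrasts depend on the scaling was not tested.

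The first course held arrays that the comparison did not use: ZT0, ZT4 and ZT8 in its day, and ZT20 late in its night. For the 866 probe sets that were higher on the second night at unadjusted p ≤ 0.05, ZT20 stood above all 3 first-day arrays in 421 (48.6%) and below them in 124 (14.3%). Over all probe sets tested these shares were 35.2% and 27.8%. For the 384 that were lower, ZT20 stood below all 3 in 175 (45.6%) and above them in 57 (14.8%). After quantile normalization the shares were 48.6% above for the higher group and 44.3% below for the lower group, against 31.8% and 28.8% of all. Without ZT0, the array at the end of the last dark period, they were 55.4% and 52.6%, against 43.7% and 33.6% of all.

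**Figure D4:**
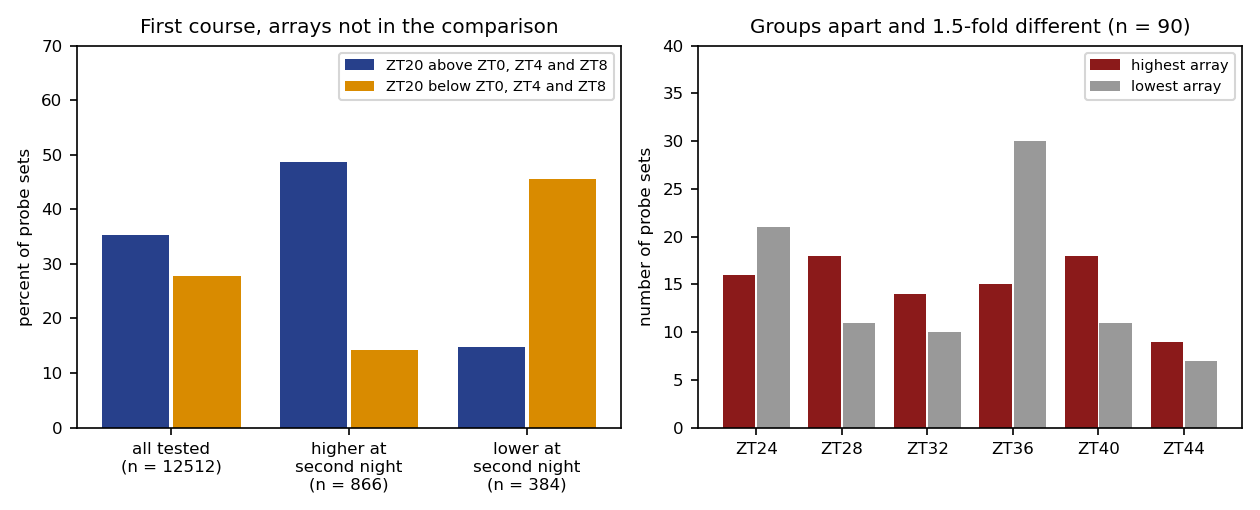
Left, percent of probe sets whose ZT20 signal lies above (blue) or below (orange) all 3 arrays of the first subjective day, for all probe sets tested and for those higher or lower on the second night at unadjusted p ≤ 0.05. Right, number of the 90 probe sets that were apart and 1.5-fold different whose highest (red) or lowest (grey) signal falls on each array, with ZT36 the most frequent lowest array.

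ZT20 is a single array with no spread of its own. In a limma fit of the 10 arrays, where it is assumed to vary like the arrays of the other groups, 281 probe sets (2.25%) were higher and 353 (2.82%) lower at ZT20 than on the first day at an adjusted p of 0.05. These calls compare that 1 array with the first day and do not test whether the second-night differences recur. COL1 was among the called ones, with 124, 91.1 and 118 in the first day and 195 at ZT20 (0.82 ± 0.19, adjusted p = 0.0405). LUX climbed from 2.40 to 42.8 over the first day and read 184 at ZT20 (4.42 ± 1.12, adjusted p = 0.053). COL5 had 385, 93.7 and 140, then 689 at ZT20 (2.01 ± 0.56, adjusted p = 0.0698). For these 3, ZT20 lay above every array of the first day. GI1A was not: its 2784 at ZT8 was its highest signal of the course and 874 at ZT20 lay within the first-day range. On the day side lhcb6 was called lower at ZT20 (-0.99 ± 0.15, adjusted p = 0.0168), as were LHB1B2 and the protochlorophyllide reductase pcr1. The 3 piip1 probe sets that were lower on the second night differed by -0.32, 0.03 and 0.38 there, and GRMZM2G425728 by 1.80 ± 1.44 with first-day values from 13.8 to 625.

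A split at dusk passes by transcripts that peak across it. Among the 386 probe sets with a 2-fold range over the 6 arrays (signals under 50 set to 50), ZT32 and ZT36 were the highest pair for 27, and 1 of these had unadjusted p ≤ 0.05. Where the highest pair lay on one side, 41 of 52 did for ZT36 and ZT40 and 16 of 28 for ZT40 and ZT44. By day 25 of 51 did for ZT24 and ZT28 and 22 of 47 for ZT28 and ZT32. The pairs were sorted on the same 6 arrays that were tested. The contrast therefore follows from the sorting and is no further evidence. tip4a (GRMZM2G103945), a tonoplast aquaporin, read 270, 549 and 1289 by day and 1256, 938 and 596 by night (0.63, adjusted p = 0.675). The bZIP factor bZIP111 (GRMZM2G073427) had 344 at ZT32 and 609 at ZT36 and between 93.6 and 201 on the other 4 arrays. The 3 DNAJ co-chaperones were in the same position, of which GRMZM2G399136 read 604 and 431 on those arrays and between 193 and 329 elsewhere. A match to an HhH-GPD base excision repair protein (GRMZM2G114592) read 1176 and 699 there and between 286 and 641 elsewhere. These examples were chosen after their values were seen.

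The tissue was checked against its markers. Light-harvesting and photosystem probe sets had a median signal between 5351 and 6409 on each of the 6 arrays, whereas the 16 zein and other endosperm probe sets, which a leaf should lack, had one between 4.18 and 6.46 and 1 of the 16 passed the filter. The 2 probe sets with a pollen name both passed it, with a summed signal from 332 to 499 by day and from 305 to 368 by night. Histones and replication genes, which mark dividing cells, gave 0 of 23 probe sets in either direction at unadjusted p ≤ 0.05. Over all, 6.92% were higher and 3.07% lower at that p. The summed signal of the histone and replication genes ran from 22237 to 24408 by day and from 22051 to 24782 by night. In whole shoots a lower share of a cell type and less RNA per cell cannot be told apart.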

How the data were processed

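The intensity values that the authors deposited are linear array signals, for which the submitters' processing notes name MAS5 without a version. Samples were grouped by the time in their labels, and the arrays of ZT12 and ZT16 are not analysed here. Control probe sets (113 of 17734) were left out, values under 1 (2968) were set to 1 and log2 was taken without further scaling. Night minus day was tested with limma 3.58.1 in R 4.3.3 (lmFit, eBayes with an intensity trend, 4 residual degrees of freedom) and adjusted by the Benjamini-Hochberg method. The fit was tested on simulated data. ZT20 was compared with the first day in a fit of all 10 arrays. The number of arrays limits the precision.

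Names come from the platform annotation, updated through RefSeq (Zm-B73-REFERENCE-NAM-5.0), and from a part of the study's annotation that favours its rhythmic genes; 2229 of 12512 tested probe sets have one, many as matches to Arabidopsis. Named are the 10 named probe sets with the lowest p on each side, 14 genes in every case, and some of up to 4 members per list with the lowest p; others were chosen after their values were seen. The members and lists were chosen with earlier results of these data known, and lists of the study's own genes are no independent evidence. Tables were summarised with Python 3.11.15 and pandas 2.3.3. The planned search for promoter motifs was not run, as no sequences were used here.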

Additional observations from a re-analysis of the deposited data

Results flagged for a closer look

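The night minus day differences of the first and the second course were compared in the fit of all 10 arrays. They differed at an adjusted p of 0.05 in limma for 8 probe sets, 3 with a higher and 5 with a lower difference on the second day, and adjusted p between 0.0355 and 0.0484. The number was 0 after quantile normalization and 0 without ZT4, 6 after centring, 33 without ZT0 and 48 without ZT8. Among the 8 only CYP81D4 (GRMZM2G114988), a match to a cytochrome P450, has a name here. Its signal was 62.8, 52.1 and 93.5 at ZT0, ZT4 and ZT8 and 401 at ZT20, then 222.0 to 281.4 on the second day and 195, 268 and 236 on the second night. The difference of the differences was -2.74 (adjusted p = 0.0439). For all 8 the second-course difference was at most 0.23 in log2 in either direction. In most of them the later signals stayed on the same side of the first-day signals as ZT20. An unnamed one read 660 to 731 on the first day, 1471 at ZT20 and 1228 to 1367 afterwards. Another was low at ZT20 only, with 79.1 to 115 on the first day, 16.4 at ZT20 and 66.2 to 86.6 afterwards. Whether signals shifted lastingly after ZT8 was not tested. ZT20 rests on 1 array.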

How the results depend on the processing

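Of the 16 alternatives, the fits without an intensity trend and with robust variances were left out of the next count. Over the others, for 141 named probe sets, 13 of 1963 values had the opposite direction, in 5 probe sets, and 6 crossed the threshold. No probe set passed the adjusted threshold as reported; 1 did after quantile normalization, 1 after centring, 1 with robust variances, and 0 to 4 when a time point was left out. Probe sets that were higher at unadjusted p ≤ 0.05 numbered 554 after quantile normalization, 393 after centring and 534 in the fit of 10 arrays, and 584 to 855 when a time point was left out. The lower ones numbered 582, 858 and 219, and 272 to 452. The probe sets apart and 1.5-fold higher at night numbered 27 under both scalings, 221 without a filter, 20 with a pseudocount of 32 and 52 to 109 when a time point was left out. The probe sets apart and 1.5-fold lower at night numbered 271, 26 and 55 to 95 in the last 3 of these. For the 27 after centring, the medians were those of the probe sets tested. ZT20 was higher than the first day for 235 to 454 probe sets when an array was left out, and the 2 differences differed for 0 after quantile normalization and for 0 to 48 when an array was left out. The causes were not tested, except that fewer arrays make non-overlap easier to meet.

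List medians that moved were 0.59 for flowering time (signal of at least 100), -0.058 for histones and 0.0086 for starch synthesis (quantile normalization) and, after centring, -0.071 for histones, -0.0058 for kinases, -0.011 for transporters, -0.012 for starch synthesis, -0.016 for transcription factors, -0.063 for ubiquitin genes, -0.091 for reactive oxygen removal and -0.094 for ribosomal proteins. When a time point was left out, the median ran from -0.21 to -0.018 for the Calvin cycle, 0.073 to 0.26 for the clock, -0.11 to 0.072 for ethylene and gibberellin, -0.29 to -0.065 for light harvesting, -0.088 to 0.036 for nitrogen assimilation and 0.039 to 0.10 for starch synthesis. Directions turned for BCH1 (-0.040 after centring, -0.16 to 0.22 with a time point left out), CAT3 (0.050 after quantile normalization, -0.13 to 0.17), PSY (-0.055 to 0.48), PRR7 (-0.25 to 0.13) and the fourth piip1 probe set (-0.00020 after quantile normalization, -0.018 after centring, -0.094 to 0.16).

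No paired analysis was possible because of the replicate numbers, which are the same on every label. A pairing by time of day, with arrays 12 h apart as a block, was fitted instead: 636 probe sets were higher and 320 lower at unadjusted p ≤ 0.05, and the lowest adjusted p was 0.138.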
